A study of Rattus norvegicus with 8 samples.

Results

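The genes described here encode the enzymes that use glutathione or thioredoxin, or that remove superoxide and peroxides, together with proteins that share their names or fold. Membership was set by gene symbol in the platform's gene table. Every gene whose symbol begins with Gst, Mgst, Gpx, Prdx or Txn, or with Sod and a digit, was taken, with Gsr and Cat, wherever a probe set carried that symbol alone. This gave 57 of 14217 measured genes: 21 named Gst, 16 named Txn, 7 named Gpx, 5 named Prdx, 3 named Mgst, 3 named Sod, Gsr and Cat. They were measured in whole testis from Fischer 344 rat fetuses at gestational day 20. In 4 samples the dams had been gavaged daily with corn oil alone and in 4 with 50 mg/kg dibutyl phthalate (DBP, a plasticizer) in corn oil, from day 12 of gestation to day 20, and tissue was frozen 6 h after the last dose. The comparison asks whether this exposure of the dam altered transcripts of the antioxidant and conjugating enzymes in the fetal testis. The labels do not tie samples to separate dams or litters, so the tests measure only the spread between these samples. The label of enzymes does not hold for every member: Txnip binds and inhibits thioredoxin, Txnl4a and Txnl4b are splicing proteins with a thioredoxin fold, and Gstcd is a protein with a glutathione transferase-like domain.

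Glutathione is a tripeptide whose cysteine thiol gives electrons to peroxides and attaches to reactive compounds. Glutathione peroxidases use it to reduce peroxides, glutathione transferases join it to electrophiles, and glutathione reductase regenerates it with NADPH. Thioredoxin is a small protein that does similar work through a pair of cysteines. Peroxiredoxins draw on it to reduce peroxides, and thioredoxin reductases recharge it. Superoxide dismutases turn superoxide into hydrogen peroxide, which catalase and the peroxidases then remove. In the testis, Leydig cells make superoxide and peroxides as by-products of steroid synthesis and are known for high glutathione transferase levels, and Gpx4 is essential to sperm formation.

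The arrays were alike in overall signal, with medians of 6.08 to 6.13 on the log2 scale and correlations over probe sets of 0.991 to 0.998 between any pair. DBP replicates 3 and 4 stood apart: the control transcripts spiked into the RNA, which carry poly-A tails and come from a bacterium, averaged 4.84 and 4.79 against 6.46 to 7.17 on the other 6 arrays. Results are therefore also given for DBP replicates 1 and 2 alone and for replicates 3 and 4 alone, each against the same 4 vehicle arrays. Markers of the labelled tissue were well detected, with average log2 values of 12.64 for Amh (Sertoli cells), 11.69 for Insl3 and 12.62 for Cyp17a1 (Leydig cells) and 9.15 for Sycp3 (germ cells). In bulk tissue, fewer cells of a type and less RNA per cell cannot be told apart.

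None of the 57 members reached an adjusted p under 0.05 (limma, with Benjamini-Hochberg adjustment across all probe sets), the smallest adjusted p being 0.0709 for Gpx2. That threshold was passed by 1.07% of all probe sets and by 1.22% of genes, so 0 of 57 is near the background. An unadjusted p under 0.05 was found for 11 members (19.3%), against 19.1% of all genes. Of these, 10 lay higher after DBP, where 11.3% of all genes did so, and 1 lay lower, where 7.84% of genes did so. The members leaned towards higher values, with 41 of 57 above 0 (71.9%, against 57.3% of all genes) and a median log2 change of 0.06 against 0.02. The groups did not overlap for 10 members, all with DBP higher (17.5%; 7.31% of all genes), and for 0 members with DBP lower (5.56% of all genes).

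Differences were small throughout. Changes ran from -0.16 for Sod2 to 0.38 for Gpx2 on the log2 scale, the latter being 1.30-fold. The 95% confidence intervals of the 57 changes lay between -0.36 and 0.58, the lower bound being 1.28-fold down. Half-widths of the intervals ran from 0.11 to 0.30, and the interval lay wholly above 0 for 10 members and wholly below 0 for 1. DBP arrays spread more than vehicle arrays: the median SD (n = 4) over the members was 0.10 after DBP and 0.050 in vehicle, against 0.12 and 0.066 over all genes.

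**Figure D1:**
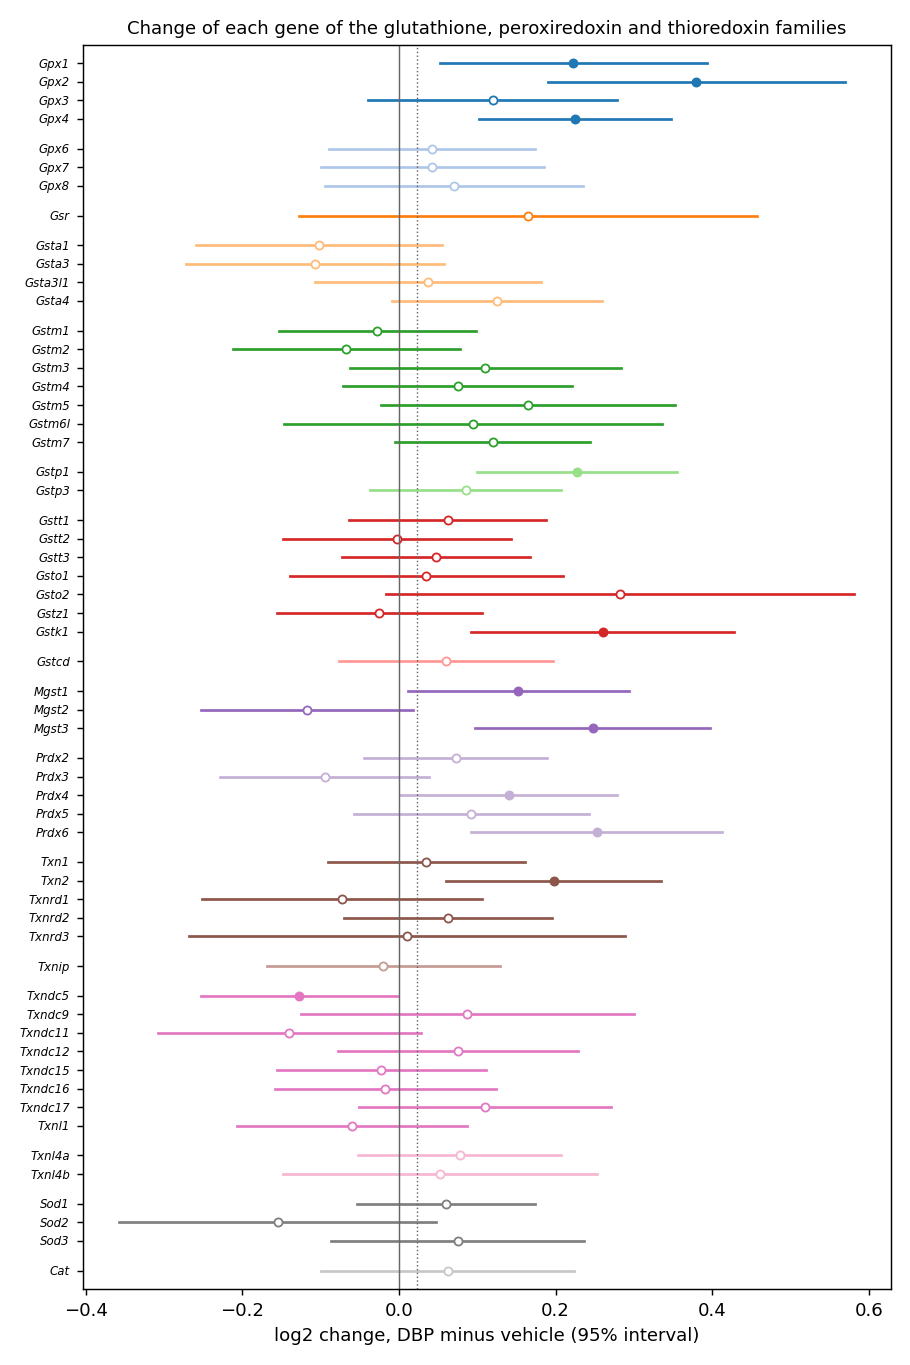
Log2 change (DBP minus vehicle, x axis) of the 57 genes, grouped and coloured by role, with 95% intervals of the model as lines; filled points have an unadjusted p under 0.05 and the dotted line is the median of all genes (0.02). The points lie between -0.16 and 0.38, with 10 filled points above 0 and 1 below.

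Promoter sequences are shown for the members with an unadjusted p under 0.05 whose promoter holds the core of the antioxidant response element, the sequence through which the factor Nrf2 acts on many genes of these families. The letters TGACNNNGC were searched on both strands of the 250 bases before each gene's start, in RefSeq promoters of rat build GRCr8. A promoter was at hand for 48 of the 57 members and 10 of the 48 held the core (20.8%), against 10.2% of all 27457 promoters of that length. Among the 10 members that held it, 3 had an unadjusted p under 0.05, and their stretches read 5′ to 3′ along the gene with the match in capitals:
Gpx2 (chr6:101230034-101230086, minus strand of the genome): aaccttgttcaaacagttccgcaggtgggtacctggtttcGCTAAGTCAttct
Gstp1 (chr1:210769718-210769806, minus strand of the genome): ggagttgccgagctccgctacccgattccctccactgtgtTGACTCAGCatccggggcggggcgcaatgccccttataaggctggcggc
Txndc5 (chr17:26495405-26495466, plus strand of the genome): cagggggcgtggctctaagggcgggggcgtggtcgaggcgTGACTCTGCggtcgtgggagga

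In Gpx2 the match reads on the opposite strand and lies 13 to 5 bases before the start. In Gstp1 it lies 61 to 53 bases before the start and overlaps a match to the AP-1 letters TGANTCA, which 6.36% of all promoters hold. In Txndc5 it lies 22 to 14 bases before the start. The log2 changes of these genes were 0.38, 0.23 and -0.13, so the promoters with a match belonged to genes on either side of 0. The other members with the core were Gstm5, with a pair of matches, Gstm7, Txndc11, Sod2, Gsta3, Gstcd and Gstz1, with changes between -0.16 and 0.17. No member promoter held an exact match to the direct repeat that PPAR factors bind, which 15 of the 27457 promoters held. A match is a description of letters and not of binding.

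Among the glutathione peroxidases, all 7 members lay above 0, with a median log2 change of 0.12, and 3 had an unadjusted p under 0.05. Gpx2, a selenocysteine enzyme best known from gut epithelium, had log2 values of 6.34, 6.26, 6.26 and 6.04 in vehicle replicates 1 to 4 and 6.55, 6.46, 6.77 and 6.64 in DBP replicates 1 to 4. Every DBP array exceeded every vehicle array, with means of 6.23 ± 0.13 and 6.61 ± 0.13 (± SD over 4 arrays each) and a change of 0.38 ± 0.085 (SE; adjusted p = 0.0709). Its change was 0.28 over DBP replicates 1 and 2 alone (adjusted p = 0.161) but 0.48 over replicates 3 and 4 (0.0186).

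Gpx4, which reduces lipid hydroperoxides within membranes, read 10.93, 10.88, 10.89 and 10.85 in vehicle and 11.10, 11.03, 11.16 and 11.16 after DBP. These groups did not overlap either, and the change was 0.23 ± 0.055 (SE; 1.17-fold, adjusted p = 0.0915). A second, dimmer Gpx4 probe set (mean 5.59) gave 0.06 with overlapping groups (adjusted p = 0.692), and the mean over both gave 0.14 (0.194).

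Gpx1, the main cytosolic peroxidase and abundant in red cells, read 11.47, 11.46, 11.33 and 11.34 in vehicle and 11.81, 11.63, 11.56 and 11.49 after DBP, a change of 0.22 ± 0.077 (SE; adjusted p = 0.183). Its groups did not overlap, and DBP replicates 1 and 2 gave 0.32 where replicates 3 and 4 gave 0.13. The mean log2 level of 10 erythroid markers was 8.09, 7.98, 7.56 and 7.53 on DBP replicates 1 to 4, against 7.38 to 7.73 on the vehicle arrays. The mean of the markers thus lay above the vehicle range on DBP replicates 1 and 2 and within it on replicates 3 and 4. Gpx1 lay above its vehicle range on all 4. So did 1 of the markers, the hemoglobin gene Hba-a3, with 12.02, 12.01, 11.90 and 11.96 after DBP. Its vehicle arrays read 11.58 to 11.86, and its change was 0.28 (adjusted p = 0.109). For the other markers, Hbb among them (0.06), the groups overlapped. Over all 4 DBP arrays the 10 markers lay above 0, 0 passed, 3 had an unadjusted p under 0.05, and 2 had a mean below 5. For DBP replicates 1 and 2 alone the list's median change was 0.51 and 4 of the 10 passed, all higher: Slc4a1, the red cell anion exchanger, with 1.26 (adjusted p = 0.0108), Alas2, of heme synthesis, with 0.70 (0.0315), Hemgn with 0.63 (0.0294) and the factor Klf1 with 0.53 (0.0483). For replicates 3 and 4 the median was -0.01 and 1 passed, Epor, the erythropoietin receptor (0.56, adjusted p = 0.0104). Their part in the Gpx1 difference was not tested.

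Gpx3, the secreted plasma form, gave a difference of 0.12 (adjusted p = 0.391), its vehicle arrays running from 6.92 to 7.09 and its DBP arrays from 7.03 to 7.28. Gpx7 and Gpx8, peroxidases of the endoplasmic reticulum, gave 0.04 and 0.07, with intervals of -0.10 to 0.18 and -0.09 to 0.23. Gpx6 gave 0.04 at a mean of 3.18, low enough that no expression can be read from it. Gsr, glutathione reductase, gave 0.17 with overlapping groups and one of the wider intervals, -0.13 to 0.46 (adjusted p = 0.515). Its vehicle arrays alone ran from 5.80 to 6.34.

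**Figure D2:**
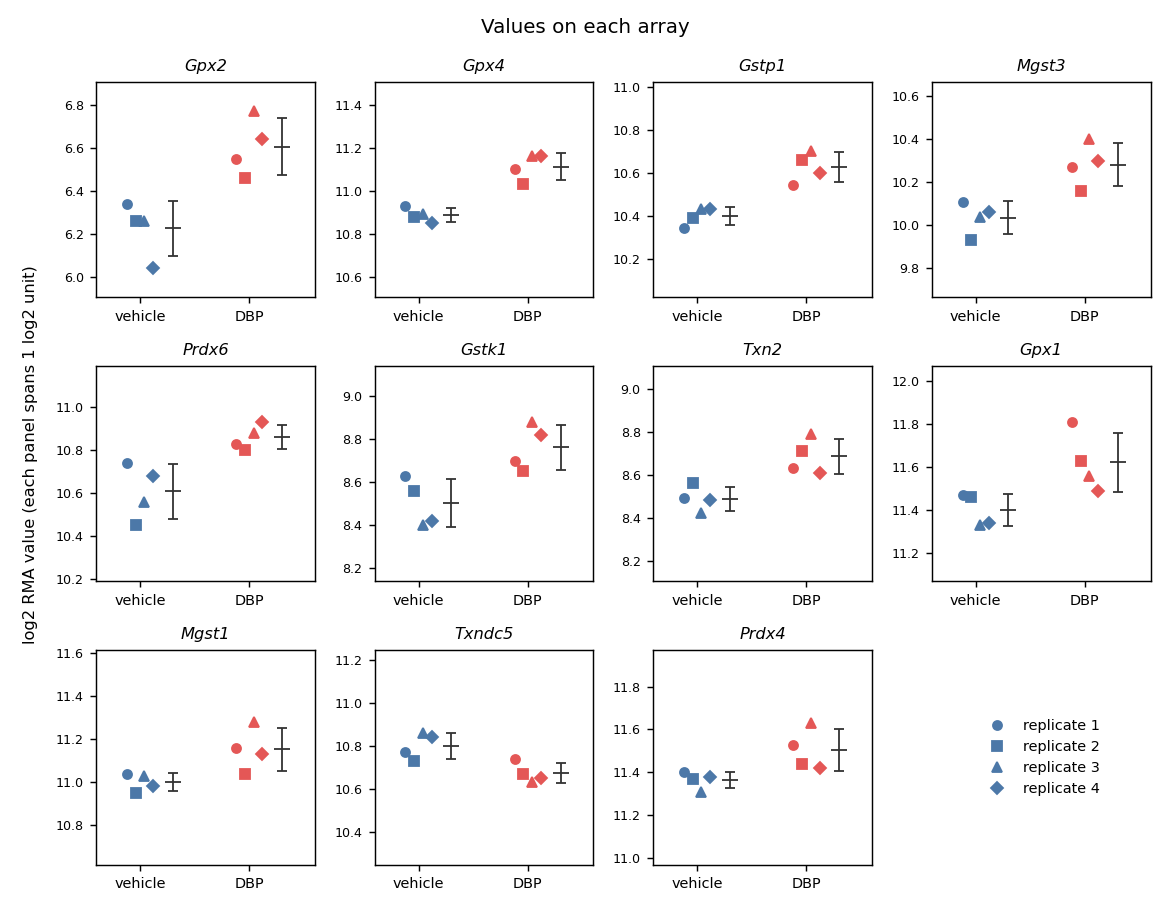
Log2 RMA values (y axis, each panel spanning 1 log2 unit) of the 11 members with an unadjusted p under 0.05 on the 4 vehicle and 4 DBP arrays; symbols mark the replicate number, and bars give the mean and SD. Gpx2, Gpx4, Gstp1, Mgst3, Prdx6, Gstk1, Txn2, Gpx1 and Prdx4 have every DBP array above every vehicle array, while Mgst1 and Txndc5 overlap.

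Glutathione transferases were the largest family, and 2 of the 21 members named Gst had an unadjusted p under 0.05, both higher. Gstp1, the pi class enzyme, read 10.34, 10.39, 10.43 and 10.43 in vehicle and 10.54, 10.66, 10.70 and 10.60 after DBP. The groups were apart, with a change of 0.23 ± 0.058 (SE; 1.17-fold, adjusted p = 0.0992), of similar size in DBP replicates 1 and 2 (0.20) and 3 and 4 (0.25). Gstp3, its direct neighbour in RefSeq's gene order, had a mean of 3.81 and gave 0.09 with overlapping groups. Gstk1, the kappa class enzyme of mitochondria and peroxisomes, read 8.63, 8.56, 8.40 and 8.42 in vehicle and 8.70, 8.65, 8.88 and 8.82 after DBP. Its lowest DBP array (8.65) lay just above its highest vehicle array (8.63). The change was 0.26 ± 0.076 (SE; adjusted p = 0.131), with 0.17 for DBP replicates 1 and 2 against 0.35 for replicates 3 and 4.

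Alpha class members did not move together. Gsta1, a transferase that also isomerises steroid intermediates, read 11.40, 11.38, 11.52 and 11.41 in vehicle and 11.31, 11.30, 11.49 and 11.20 after DBP, with a change of -0.10 (95% interval -0.26 to 0.05). Gsta4, which conjugates the lipid peroxidation product hydroxynonenal, gave 0.13 (-0.01 to 0.26). Gsta3 and Gsta3l1 had means of 3.45 and 3.23 and changes of -0.11 and 0.04.

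The 7 mu class genes lie in one cluster in RefSeq's gene order, with 2 other protein-coding genes between Gstm7 and Gstm3 and none between the other neighbours, and they gave changes of -0.07 to 0.17 with 0 at an unadjusted p under 0.05. Gstm5 read 11.18, 11.05, 11.02 and 11.03 in vehicle and 11.21, 11.02, 11.42 and 11.29 after DBP. Its difference came from DBP replicates 3 and 4 (0.29, adjusted p = 0.041), since replicates 1 and 2 gave 0.05. Gstm7 gave 0.12 (interval -0.0046 to 0.24) and Gstm2 -0.07 (-0.21 to 0.08). Gstm1 gave -0.03 (-0.15 to 0.10). Gstm3 and Gstm6l had means of 4.09 and 4.25. Paralogs within a class are close in sequence, so probe sets of 1 gene may take up signal of another.

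Gsto2, an omega class enzyme that also reduces dehydroascorbate, had the second highest change of all members, 0.28 ± 0.13 (SE; adjusted p = 0.296), and it rested on the arrays with low spike-in signal. Vehicle arrays read 6.17, 6.19, 6.11 and 6.17, DBP replicates 1 and 2 read 6.21 and 6.17, and replicates 3 and 4 read 6.51 and 6.88. Replicates 1 and 2 gave 0.03 and replicates 3 and 4 gave 0.54 (adjusted p = 0.0167). Its neighbour Gsto1 gave 0.04. The theta class genes Gstt1, Gstt2 and Gstt3 gave 0.06, -0.0025 and 0.05, and Gstz1, which isomerises maleylacetoacetate in tyrosine breakdown, gave -0.03. A dimmer Gstt2 probe set gave 0.14 (adjusted p = 0.325).

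Of the microsomal transferases, Mgst3 and Mgst1 lay higher after DBP and Mgst2 lower. Mgst3, a membrane enzyme with peroxidase activity, read 10.11, 9.93, 10.04 and 10.06 in vehicle and 10.27, 10.16, 10.40 and 10.30 after DBP. Its groups did not overlap, and the change was 0.25 ± 0.068 (SE; 1.19-fold, adjusted p = 0.116). Mgst1, of the endoplasmic reticulum and outer mitochondrial membrane, gave 0.15 ± 0.064 (SE; adjusted p = 0.247), with DBP replicate 2 (11.04) level with the highest vehicle array. Mgst2, which can also make leukotriene C4, had a vehicle mean of 11.19 ± 0.039 and a DBP mean of 11.08 ± 0.090 (± SD over 4 arrays each), a change of -0.12 (adjusted p = 0.333).

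Peroxiredoxins, which reduce peroxides with a reactive cysteine, gave 4 changes above 0 and 1 below. Prdx1 is not among them, since the probe set that names it (mean 12.13) also names Prdx1l1. Prdx6, the 1-cysteine member that also acts as a phospholipase, read 10.74, 10.45, 10.56 and 10.68 in vehicle and 10.83, 10.80, 10.88 and 10.93 after DBP. Every DBP array lay above the vehicle arrays, with a change of 0.25 ± 0.072 (SE; 1.19-fold, adjusted p = 0.125), and DBP replicates 1 and 2 alone gave 0.21. Prdx4, of the endoplasmic reticulum, read 11.40, 11.37, 11.31 and 11.38 in vehicle and 11.53, 11.44, 11.63 and 11.42 after DBP, a change of 0.14 ± 0.063 (SE; adjusted p = 0.271).

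Prdx2, abundant in red cells, differed by only 0.07 (adjusted p = 0.474) although its groups were apart, the vehicle arrays reading 12.02 to 12.05 and the DBP arrays 12.07 to 12.18. Prdx3, the mitochondrial peroxiredoxin, was the one below 0, at -0.10 (interval -0.23 to 0.04). Prdx5 gave 0.09.

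In the thioredoxin system, Txn2, the mitochondrial thioredoxin, read 8.49, 8.56, 8.42 and 8.48 in vehicle and 8.63, 8.71, 8.79 and 8.61 after DBP. The groups were apart and the change was 0.20 ± 0.062 (SE; 1.15-fold, adjusted p = 0.152), with 0.18 for DBP replicates 1 and 2 against 0.21 for replicates 3 and 4. Its cytosolic counterpart Txn1 gave 0.04 (interval -0.09 to 0.16). The reductases gave -0.07 for cytosolic Txnrd1, 0.06 for mitochondrial Txnrd2 and 0.01 for Txnrd3. For Txnrd3, prominent in testis germ cells, the sign differed between array pairs, with -0.19 for DBP replicates 1 and 2 against 0.21 for replicates 3 and 4, neither of which passed (adjusted p = 0.183 and 0.239). The second Txnrd1 probe set gave -0.09.

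Thioredoxin domain proteins and Txnl1 lay on both sides of 0, 3 above and 5 below. Txndc5, an endoplasmic reticulum disulfide isomerase, was the single member lower at an unadjusted p under 0.05. It read 10.77, 10.73, 10.86 and 10.84 in vehicle and 10.74, 10.67, 10.63 and 10.65 after DBP, with overlapping groups and a change of -0.13 ± 0.057 (SE; adjusted p = 0.269). Txndc11, which works in thyroid hormone synthesis, gave -0.14 (adjusted p = 0.349), and the other Txndc genes ran from -0.02 to 0.11. Txnl1, a proteasome-associated thioredoxin, was read by 4 probe sets that gave -0.06, 0.09, -0.07 and 0.03, with 0 passing. The -0.07 and 0.03 came from probe sets with a mean of 3.3 each, too low to be told from background. Txnip gave -0.02 (interval -0.17 to 0.13), and Txnl4a and Txnl4b gave 0.08 and 0.05.

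Neither catalase nor any superoxide dismutase had an unadjusted p under 0.05. Sod1, the copper-zinc enzyme of the cytosol, had a vehicle mean of 12.00 ± 0.0096 and a DBP mean of 12.06 ± 0.043 (± SD over 4 arrays each; change 0.06, interval -0.05 to 0.17). Sod2, the manganese enzyme of mitochondria, had the lowest change of all members, -0.16 (interval -0.36 to 0.05; adjusted p = 0.385). Its DBP arrays read 8.85, 8.77, 8.94 and 8.48 against 8.88 to 8.97 in vehicle, so DBP replicate 4 lay lowest and DBP replicate 3 within the vehicle range. Sod3, the extracellular form, gave 0.08. Cat, catalase of peroxisomes, had a vehicle mean of 9.71 ± 0.026 and a DBP mean of 9.77 ± 0.14 (change 0.06, adjusted p = 0.662), with DBP replicate 2 highest at 9.96; without that array the change was -0.0008.

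Across arrays, the members were higher mainly on DBP replicates 3 and 1. Relative to each gene's vehicle mean, the median over the 57 members was 0.07, 0.02, 0.12 and 0.04 on DBP replicates 1 to 4, against 0.03, 0.01, 0.03 and 0.02 over all genes. In DBP replicates 1 and 2 against vehicle 0 members passed, where 0.95% of genes passed higher and 0.717% lower, and 577 probe sets passed in all. In replicates 3 and 4 against vehicle 7 members passed, all higher: Gpx2, Gpx4, Gstk1, Gstm5, Gsto2, Gstp1 and Mgst3. There 7.43% of genes passed higher and 5.37% lower. The part of the low spike-in signal in these 7 calls was not tested; DBP replicates 1 and 2 alone gave the same 7 genes changes of 0.03 to 0.28. Both comparisons share the vehicle arrays.

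**Figure D3:**
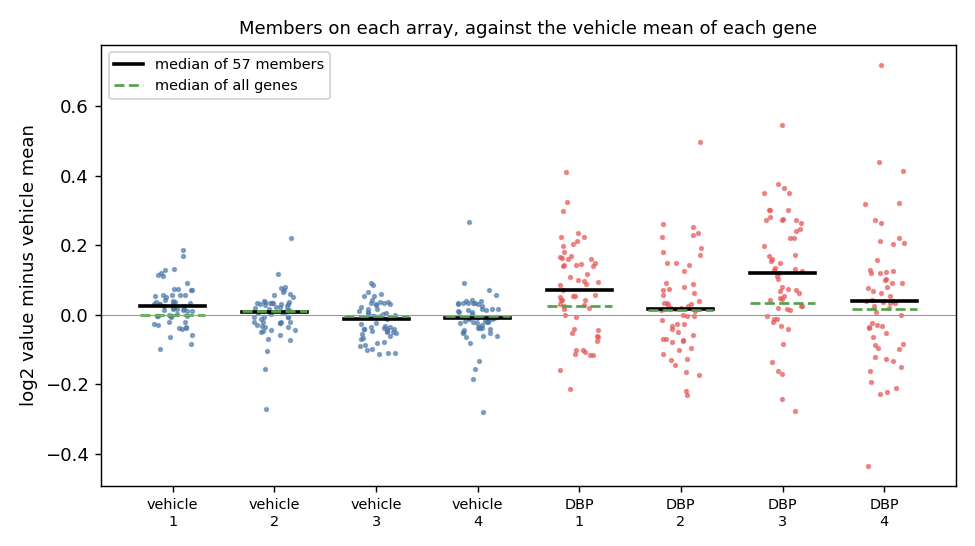
Log2 value minus the gene's vehicle mean (y axis) for the 57 members on each of the 8 arrays (x axis), 1 point per gene; the black line is the members' median and the green dashed line that of all genes. The members' median is highest on DBP replicate 3, at 0.12, and lies between 0.02 and 0.07 on the other DBP arrays.

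Mean levels of the cell type marker lists were also read, without a test of the levels. The ranges of the groups were apart for the Sertoli and Leydig lists and overlapped for stroma. The Sertoli list (9 measured genes, median change 0.25) had a mean log2 level of 8.76 to 9.03 after DBP and 8.53 to 8.62 in vehicle. Of its genes 7 lay above 0 and 2 below. At an unadjusted p under 0.05, 6 were higher and 1 lower, where 11.3% and 7.84% of all genes were. Aard, a bright gene of the list, gave 0.24 with DBP arrays all higher (adjusted p = 0.108). Testin, the 1 gene that passed (1.30, adjusted p = 0.0112), is dim, with a mean just below 5, while Inhbb, an inhibin subunit, gave -0.35 with DBP arrays all lower (0.0614) and Amh -0.05. Without the 1 gene whose mean is below 5, Testin, a step chosen after the values were seen, the levels were 9.20 to 9.39 after DBP and 9.07 to 9.16 in vehicle. In the Leydig list (9 genes, median -0.13, 0 passed), 3 genes lay above 0 and 6 below, with 1 higher and 4 lower at an unadjusted p under 0.05. Its levels were 10.32 to 10.46 after DBP and 10.49 to 10.60 in vehicle. Without its dim gene Vsnl1 (-0.70, mean 4.81) they overlapped, at 11.06 to 11.19 and 11.17 to 11.29. Insl3 gave -0.34 (adjusted p = 0.0732) with DBP arrays all lower, and Hsd3b1, a steroidogenic enzyme, 0.17 with DBP arrays all higher (0.163). For stroma (9 genes, median -0.13, 0 passed) they were 11.30 to 11.60 after DBP and 11.55 to 11.63 in vehicle. Markers of macrophages (10 genes, all above 0, median 0.11), myoid cells (7, 0.16), germ cells (5, 0.06) and endothelium (7, 0.04) had medians above 0, with 1 endothelial gene passed. Mesonephric duct (7, -0.03) and adrenal lists (6, -0.03) had 4 and 2 genes with means below 5, and 1 adrenal gene passed, lower. The part of these cell types in the members' values was not tested.

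Around the members, 7 lists of related genes were read. Srxn1, Hao2 and Akr1b8 passed higher and Hmox1 passed lower, where 1.22% of all genes passed. An unadjusted p under 0.05 with DBP higher was found for 11.3% of all genes. Of 16 genes of glutathione synthesis and turnover, 0 passed and 4 had an unadjusted p under 0.05, all higher. In this list 13 genes lay above 0 and 3 below, with a median of 0.07. Gss, glutathione synthetase, read 8.25, 8.13, 8.09 and 8.16 in vehicle and 8.39, 8.27, 8.31 and 8.34 after DBP, a change of 0.17 (adjusted p = 0.181). Its groups did not overlap, nor did those of Ggt1, the transpeptidase that breaks down extracellular glutathione (0.27, adjusted p = 0.0988). Gclc and Gclm, the catalytic and modifier subunits of the rate-limiting ligase, gave 0.15 (0.271) and 0.09 (0.685), and Slc25a39, the mitochondrial glutathione carrier, 0.25 (0.14).

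Of 24 genes of glutaredoxins, thiol repair enzymes and other glutathione-linked proteins, 1 passed and 5 had an unadjusted p under 0.05, all higher. Here 19 genes lay above 0 and 5 below, with a median of 0.095. Srxn1, sulfiredoxin, which reactivates over-oxidised peroxiredoxins, read 4.44, 4.59, 4.22 and 4.37 in vehicle and 5.41, 5.30, 4.90 and 5.55 after DBP. Every DBP array was higher, with a change of 0.89 ± 0.13 (SE; adjusted p = 0.0126). Its vehicle mean of 4.41 lies below 5, where a signal cannot be told from background, so the vehicle level and with it the size of the change are not determined. The change of the mean over the 3 probe sets of Srxn1 was 0.42, and the call ended without vehicle replicate 3 (adjusted p = 0.0571) or vehicle replicate 4 (0.0523), and with unmoderated statistics (0.12). Glrx5, a mitochondrial glutaredoxin of iron-sulfur cluster assembly, gave 0.24 (adjusted p = 0.0928) with groups apart, and Glrx gave 0.12 (0.414).

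NADPH-supplying enzymes leaned the other way, with 6 of 8 below 0, a median of -0.10 and 0 passed. Idh1, cytosolic isocitrate dehydrogenase, gave -0.16 (adjusted p = 0.252), the list's only unadjusted p under 0.05, and Tkt, transketolase, gave -0.11 (0.32). Gpx1 to Gpx4 and the thioredoxin reductases carry selenocysteine, and a list of 14 genes of selenoprotein synthesis and other selenoproteins was set beside them. Of these 0 passed, 6 lay above 0 and 8 below, and the median was -0.02. The 3 with an unadjusted p under 0.05 were all higher: Selenom (0.26), Selenok (0.16) and Eefsec (0.13). Of 18 peroxisomal genes 1 rose, Hao2, a hydroxyacid oxidase that makes hydrogen peroxide. It read 7.31, 7.28, 7.37 and 7.36 in vehicle and 8.35, 8.35, 8.03 and 8.24 after DBP, a change of 0.91 ± 0.077 (SE; 1.88-fold, adjusted p = 0.00118), while catalase in the same organelle gave 0.06 and Pex16 0.13 (adjusted p = 0.268). A list of 14 genes of superoxide and peroxide production held oxidases, their subunits and Ccs, the copper chaperone of Sod1, which makes neither (0.07). None of them passed, 9 lay above 0 and 5 below, and 6 had a mean below 5. Ncf1 (0.23, mean 4.62) and Noxo1 (0.20, mean 5.04), both oxidase subunits, were the 2 with an unadjusted p under 0.05.

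Among 23 measured Nrf2-linked genes outside the families, 2 rose and 1 fell, and none of the 57 members, several of which are known Nrf2 targets, passed beside them. In this list 15 genes lay above 0 and 8 below, with a median of 0.05. At an unadjusted p under 0.05, 6 were higher and 3 lower, where 11.3% and 7.84% of all genes were. Akr1b8, an aldo-keto reductase, read 9.61, 9.57, 9.54 and 9.58 in vehicle and 10.40, 10.41, 10.39 and 10.14 after DBP, a rise of 0.76 ± 0.070 (SE; 1.69-fold, adjusted p = 0.00153). Srxn1 was the other gene that rose, with the limit given above. Hmox1, heme oxygenase 1, fell from 8.33 ± 0.11 to 7.97 ± 0.039 (± SD over 4 arrays each; change -0.37, adjusted p = 0.032). Its call ended without vehicle replicates 1, 2 or 3 or DBP replicates 1 or 3 (adjusted p from 0.0599 to 0.126) and after quantile normalization (0.0534) or with unmoderated statistics (0.105). Nfe2l2, the gene of Nrf2 itself, gave -0.17 (adjusted p = 0.232), and Nqo1, a common readout of Nrf2, gave -0.01 (0.961), a direction that turned under array shifting and quantile normalization (0.01 in each). The difference between these genes and the members was not tested.

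**Figure D4:**
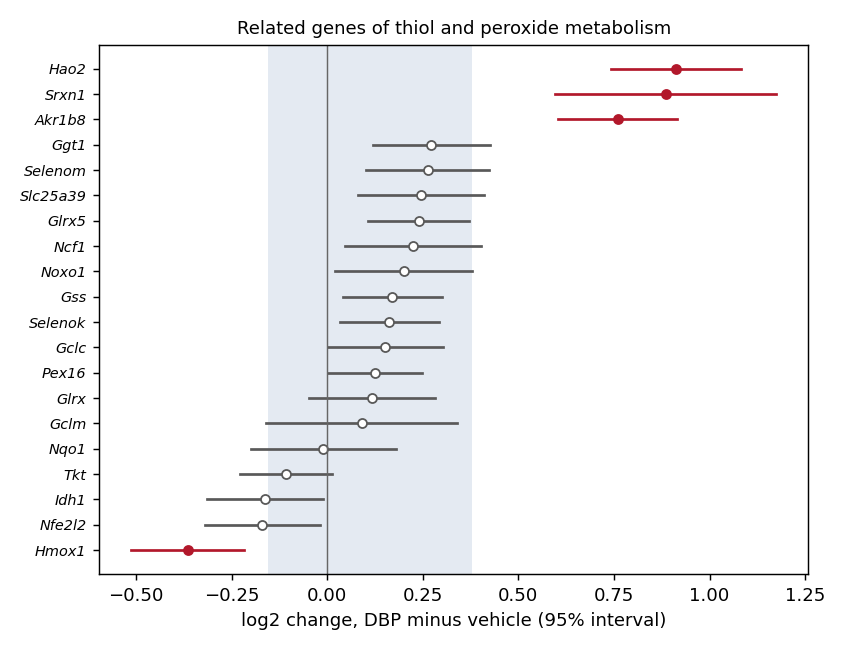
Log2 change (DBP minus vehicle, x axis) with 95% intervals for the 20 named genes of the related lists; filled red points passed at an adjusted p under 0.05, and the shaded band spans the changes of the 57 members (-0.16 to 0.38). Hao2, Srxn1 and Akr1b8 lie above the band and Hmox1 lies furthest below it, while the other 16 genes had changes between -0.17 and 0.27.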

How the data were processed

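The authors deposited log2 RMA values, 1 per probe set and array, on an Affymetrix rat expression array; RMA is named in the submitters' processing notes, with no version there. The precision is limited by the number of arrays, 4 per group. Of 31099 probe sets, 57 Affymetrix controls were set aside and 31042 tested; 20826 had 1 gene symbol, 436 several and 9780 none. 2 probe sets with several symbols of these families were left out, 1 naming Prdx1 and Prdx1l1 and 1 naming Gsta2 and Gsta5. The probe set with the highest mean over the 8 arrays represented a gene. limma 3.58.1 (R 4.3.3; lmFit and eBayes, 2-sided) compared DBP with vehicle, with Benjamini-Hochberg adjustment over all 31042 probe sets; tables used Python 3.11.15 and pandas 2.3.3. The procedure was tested on simulated data, with planted changes larger than any member's and the same spread in both groups. That test does not show how often changes as small as the members' would be missed. Named genes were the 20 members with the smallest p, the brightest of each family, those past the threshold and 2 or more per related list, with a fixed set. Members, lists, promoter letters and alternatives were chosen with earlier results of these data known. Same-numbered arrays did not deviate together (correlations from -0.08 to 0.11), so numbers were not used as pairs.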

Additional observations from a re-analysis of the deposited data

Results flagged for a closer look

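One named gene had an array far from the others of its group. Akr1b8 read 10.14 on DBP replicate 4, against 10.39 to 10.41 on the other 3 DBP arrays. Of 92 groups of 4 arrays checked, 1 stood out in this way, and chance alone marks about 1 in 20.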

How the results depend on the processing

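In most alternatives 0 members passed, as in the comparison reported. The exceptions were all higher: 1 of 50 members when probe sets below the median signal were left out (Gpx2), 2 with a trend and robust prior (Gpx4 and Gstp1), 7 with DBP replicates 3 and 4 only, and 3 at a threshold of 0.1 (Gpx2, Gpx4 and Gstp1). In the same order, 2.42%, 1.49%, 13.3% and 2.64% of all probe sets passed in these settings, in either direction. Leaving out 1 array in turn gave 0 to 1, the 1 being Gpx2 without DBP replicate 2 (adjusted p = 0.0454), where 1.95% of all probe sets passed. The members' median change stayed between 0.045 and 0.085 in all alternatives that refit it. With the replicate number as a block 0 members and 175 probe sets passed, and the calls of Srxn1, Hao2 and Akr1b8 held while that of Hmox1 did not (adjusted p = 0.0674). All probe sets passing numbered 331, 74 with unmoderated statistics, 82 to 606 without 1 array, 577 and 4129 with DBP replicates 1 and 2 or 3 and 4 only. Changes near 0 turned sign for Cat (-0.0225 with DBP replicates 3 and 4; -0.0008 to 0.11 without 1 array), Gclm (-0.0550 with DBP replicates 3 and 4) and Nqo1. For Nqo1 the values were 0.0125 with arrays shifted to the same median, 0.0127 after quantile normalization, 0.01 with the RNA integrity number as covariate, 0.10 with the spike-in term or DBP replicates 1 and 2 only, 0.0387 with array weights and -0.06 to 0.05 without 1 array. The causes were not tested. RMA values carry no detection call, so the 6 members with a mean below 5 cannot be told from background.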
